A study of Mus musculus with 74 samples.

Results

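The genes described here build and police the mitotic spindle in mouse CD4+ T cells that divide after activation. They are 44 named genes of mitotic entry, the spindle checkpoint, sister chromatid separation, the chromosomal passenger complex, the kinetochore, spindle assembly, cytokinesis and chromosome structure. The array held 42 of them, and Ccnb1 and Mki67 were not analysed here. Of these 42, 37 passed a filter on dim probes and entered the tests, out of 13817 genes that passed it in all. Each gene was read from its brightest probe, the probe with the highest mean log2 value over the 74 arrays. Membership followed gene names, and the list was drawn up with earlier results of these data known.

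The cells came from Balb/c mice aged 5 to 8 weeks. Spleens and lymph nodes were combined, and CD4+ cells with a high CD62L level were sorted magnetically. These naive cells (Tnaiv) gave the arrays at 0 h. All cultures were then activated with plate-bound anti-CD3 and soluble anti-CD28. Th0 cultures received antibodies against IFNg, IL4 and IL12, Th1 cultures received IL-12 with anti IL4, Th2 cultures received IL4 with anti IL12 and anti IFNg, and the hybrid ThMix cultures received IL12 and IL4 together. RNA was taken at 3, 6, 12, 24, 35, 48, 73, 96 and 120 h, so that the 37 conditions had 2 arrays each, from 2 independent experiments called replicate 1 and replicate 2. These are populations of cells and not sorted by cell cycle stage. The same 2 naive arrays served as the start of every culture, so the comparisons with 0 h share them. A p-value below rests on the spread between the 2 arrays of a condition, and so on only 2 experiments. The fit took all arrays as independent, although those of the same experiment moved together within time points. The SE of a change over time can therefore lie below the spread between experiments.

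As background, a cell that enters mitosis switches on Cdk1, condenses its chromosomes, attaches them to microtubules of the spindle and waits until every kinetochore is attached. The spindle checkpoint holds the anaphase-promoting complex in check until then, after which Cdc20 lets the complex destroy securin and cyclins, separase cuts cohesin, and the cell divides. Resting T cells sit outside the cycle and transcribe few of these genes. In cycling cells most of them are made in G2 and M phase, a pattern tied to CCAAT boxes bound by NF-Y and to a short promoter element called the cell cycle genes homology region (CHR).

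The promoters of the members carried these letters often. RefSeq windows of 300 bases, from 250 before to 50 after the start in GRCm38.p6, were matched by symbol for 34 members and gave 37 windows. The CHR was searched as TTTGAA or TTCGAA on both strands (TTCAAA being the reverse of the first), and the CCAAT box as CCAAT on both strands (ATTGG being its reverse). A CHR was found in 29 member windows (78.4%), against 19.2% of all 32851 windows, and a CCAAT box also in 29 (78.4%) against 37.4%. Both lay in 73.0% of the member windows and in 7.52% of all windows. With the CHR wholly before the start the shares were 48.6% and 17.1%. The 100 bases before the start are given here for 6 of the members with a CHR, since both motifs lie close to the start there. Capitals mark CCAAT boxes and CHR elements on either strand, and each sequence reads 5′ to 3′ on the gene's strand.
Cdk1, chr10:69352913-69353012, minus strand: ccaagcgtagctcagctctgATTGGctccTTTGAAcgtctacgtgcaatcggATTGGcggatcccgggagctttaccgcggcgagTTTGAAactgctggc
Cdc20, chr4:118437344-118437443, minus strand: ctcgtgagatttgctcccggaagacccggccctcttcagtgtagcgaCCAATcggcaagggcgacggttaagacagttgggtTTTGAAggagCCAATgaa
Espl1, chr15:102296193-102296292, plus strand: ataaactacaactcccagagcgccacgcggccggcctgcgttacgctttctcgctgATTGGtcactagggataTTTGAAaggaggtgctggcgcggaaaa
Kif11, chr19:37376282-37376381, plus strand: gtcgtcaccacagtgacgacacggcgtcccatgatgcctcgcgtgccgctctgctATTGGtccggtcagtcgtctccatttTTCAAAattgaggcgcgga
Kif22, chr7:127042421-127042520, minus strand: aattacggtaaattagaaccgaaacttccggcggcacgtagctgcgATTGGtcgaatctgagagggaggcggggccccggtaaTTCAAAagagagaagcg
Top2a, chr11:99024190-99024289, minus strand: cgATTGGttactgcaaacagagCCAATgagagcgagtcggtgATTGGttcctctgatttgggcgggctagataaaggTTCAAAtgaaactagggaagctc
In these stretches the CHR began 71 and 15 bases before the start in Cdk1, 18 in Cdc20, 27 in Espl1, 19 in Kif11, 17 in Kif22 and 23 in Top2a. Further upstream in the windows, a CHR also began at 215 bases in Kif22 and at 179, 140 and 120 in Top2a. No CHR was found in the windows of Birc5, Cenpe, Mad2l1, Ncaph, Nek2, Nusap1, Plk4 and Pttg1. A match describes the sequence and is not evidence of a bound site.

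The arrays measured the RNA of each gene as a normalised intensity on a linear scale, taken here to log2, so that 1 unit is a doubling. Array medians lay between 107 and 111 units. A pair of arrays stood apart from the other cultures of their time and replicate, ThMix at 12 h in replicate 1 and Th0 at 96 h in replicate 2, and in the latter 5.21% of all genes lay at least 2-fold away. Among the members this touched Ect2, which read 6.62 in Th0 at 96 h in replicate 2 while the other 96 h arrays lay between 7.96 and 8.80. Smc2 and Smc4 had their lowest 12 h readings, 7.30 and 7.36, in the ThMix array. In 70 of the 72 arrays after 0 h no tested member was 2-fold away, and the other exception was Smc4 in Th1 at 24 h in replicate 1. Of the T cell markers, 5 of 5 on the array were above the filter, and so were 3 of 3 B cell markers, 4 of 6 of monocytes, macrophages and dendritic cells, 1 of 2 of CD8 T cells, 1 of 3 of NK cells and 2 of 2 of red cell precursors. Those below it were Itgam, Itgax, Cd8a, Ncr1 and Klre1.

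The mitotic programme was low for the first 12 h and then rose steeply between 12 and 24 h in all cultures. Against 0 h, with a call needing a limma adjusted p under 0.05 and a change of at least 2-fold in the mean of the 4 cultures, 28 of 37 members were higher at 24 h, where 10.9% of all genes were. The count was 30 at 35 h (10.3% of all genes), 31 at 48 h (9.62%), and 34 at 73 h (8.30%), 96 h (7.52%) and 120 h (7.31%). Before that, Plk4 alone was called higher at 3 h (4.55% of all genes), no member at 6 h (7.85%), and Bub3, Plk4 and Ncaph at 12 h (8.58%). On the log2 scale the median member differed from 0 h by -0.01 at 12 h and by 2.63 at 24 h. The difference was 3.17 at 73 h and had barely moved by 120 h, with 3.03. The median over all genes stayed within 0.04 of 0 at every time, where quantile normalization of the arrays largely holds it. In 26 members every one of the 48 arrays at 24 to 120 h lay above every one of the 26 arrays at 0 to 12 h, as held for 1.99% of all genes. In bulk RNA more dividing cells and more RNA per cell cannot be told apart, here and below.

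**Figure D1:**
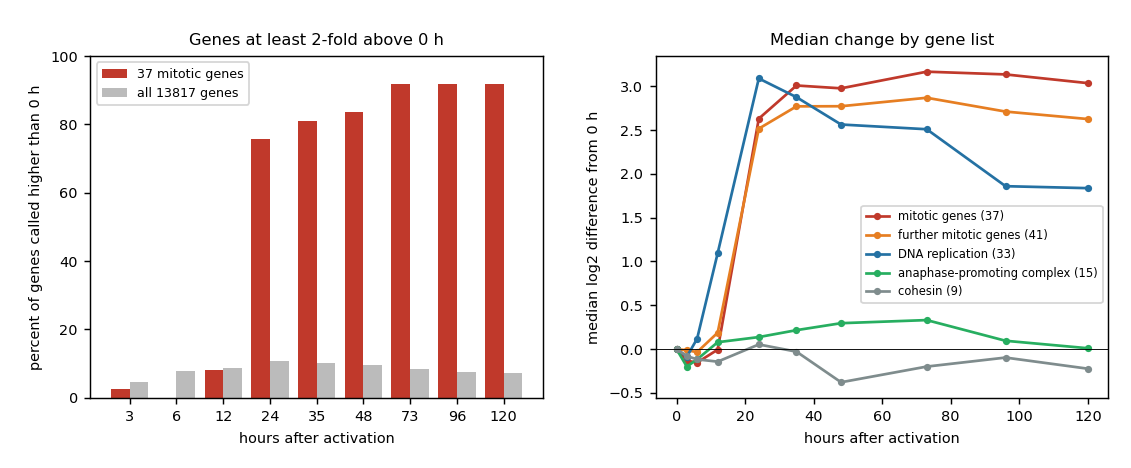
Left, the percent of the 37 tested members and of all 13817 genes called at least 2-fold above 0 h, by hours after activation. Right, the median log2 difference from 0 h for the members and for 4 other gene lists, where the members reach 2.63 at 24 h and stay near 3 to 120 h, and DNA replication genes go from 3.09 at 24 h to 1.84 at 120 h.

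The step from 12 to 24 h alone carried a 2-fold rise of 27 members, against 2.59% of all genes. From 24 to 35 h only Plk1, Cenpa and Nusap1 rose 2-fold (0.282% of all genes), by 1.08 ± 0.15, 1.71 ± 0.14 and 1.01 ± 0.15 (log2 ± SE). Each of these rises was larger in replicate 2, a gap beyond these SE. Plk1 went from 11.31 to 11.82 in replicate 1 and from 10.05 to 11.70 in replicate 2. Cenpa went from 12.72 to 13.92 and from 11.66 to 13.88. With the adjusted p alone 24 members rose (5.86%). Leaving out replicate 2 of any of the 4 cultures cut the 2-fold count to 1. On the adjusted p alone, 7 members rose from 35 to 48 h (16.2% of all genes) and 19 from 48 to 73 h (16.8%). In each culture taken by itself, nearly every member was kinetic, meaning an F-test over the 9 differences from 0 h passed and the gene was at least 2-fold higher at 2 consecutive time points. These were 35 members in Th0 (15.3% of all genes), 34 in Th1 (15.6%), 34 in Th2 (16.2%) and 35 in ThMix (16.5%). The condensin subunits Ncapg and Smc4 met this rule in no culture, and Bub3 missed it in Th1 and Th2.

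**Figure D2:**
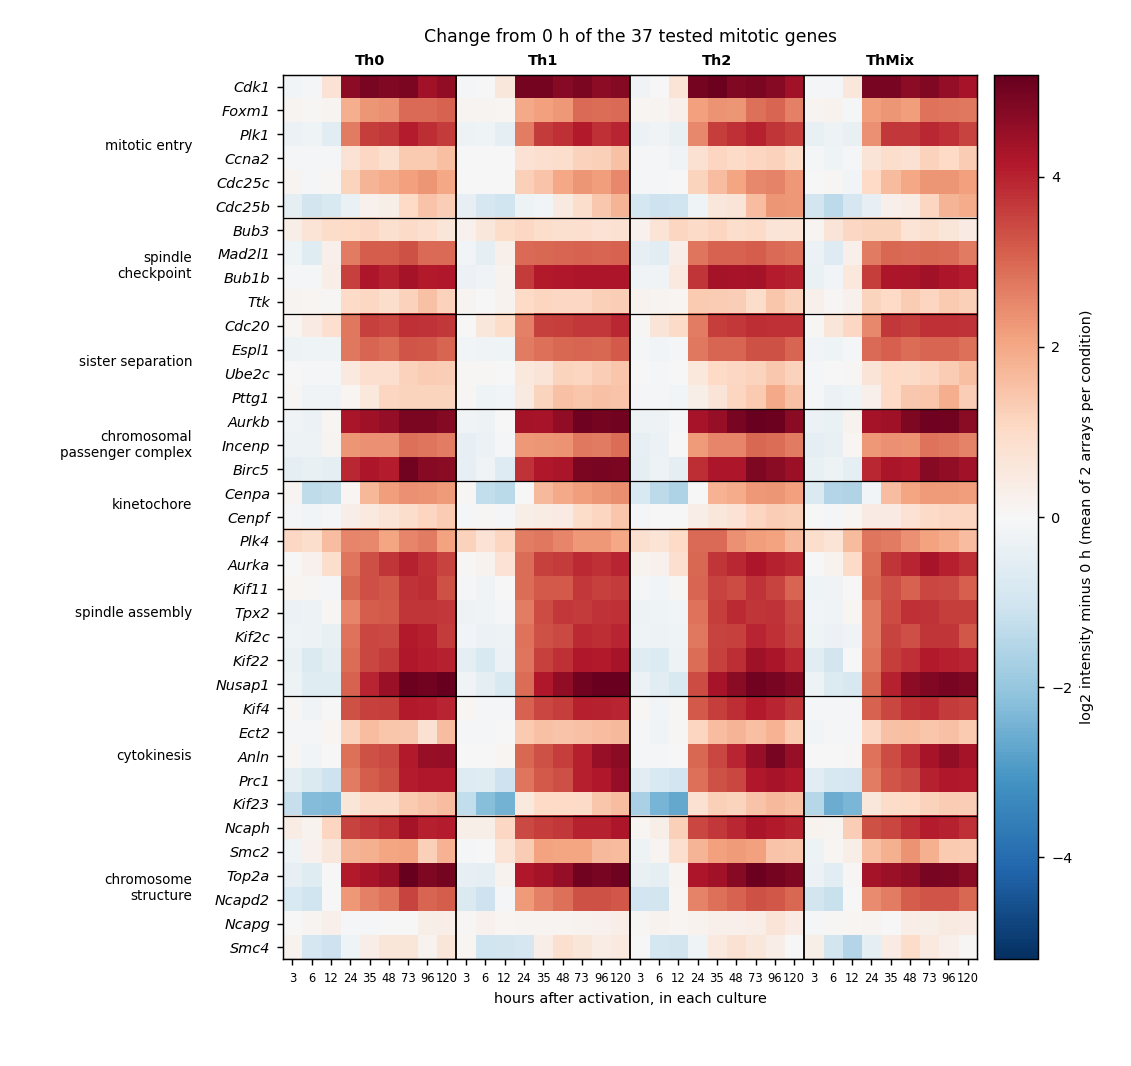
Log2 difference from 0 h of the 37 tested members (rows, grouped by role) at 9 times in each of the 4 cultures (columns), as means of 2 arrays. Most rows turn red at 24 h in every culture, Kif23 and Cenpa are blue at 6 and 12 h, and Ncapg and Smc4 stay pale.

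Among the genes of mitotic entry, 4 of 6 tested were higher at 24 h and all 6 at 120 h. Cdk1, the kinase that drives the cell into mitosis, read 7.21 and 7.27 in the naive arrays. Its 8 arrays ran from 7.72 through a median of 7.83 to 8.19 at 12 h, and from 11.65 through 12.14 to 12.40 at 24 h. All arrays from 24 h on were thus well above all earlier ones, with a difference at 24 h of 4.89 ± 0.15 (adjusted p = 1.6e-27). The 2 other expressed Cdk1 probes were dim, and their means moved by 0.39 and 0.23 over the course. The polo kinase Plk1 read 8.09 and 8.17 at 0 h and ran from 9.71 through 10.73 to 11.40 at 24 h, then from 12.03 through 12.15 to 12.28 at 73 h. Its 24 h arrays were widely spread, with a mean of 11.31 in replicate 1 and 10.05 in replicate 2. Foxm1, a transcription factor of G2 and M phase genes, was higher by 2.05 ± 0.11 at 24 h and by 2.86 ± 0.11 at 120 h. Cdc25c, a phosphatase that activates Cdk1, was higher by 1.15 ± 0.16 and 2.22 ± 0.16 at these times. Ccna2 (cyclin A2) sat near the floor of the array, at 6.41 and 6.45 in the naive cells, from 6.87 through 7.18 to 7.35 at 24 h and from 7.23 through 7.70 to 8.27 at 120 h, and was called higher from 73 h. Cdc25b, another activator of Cdk1, had the latest rise of all members. It read 7.80 and 7.84 at 0 h, from 6.41 through 6.84 to 6.95 at 6 h and from 8.78 through 9.68 to 10.33 at 120 h, so that it first lay below and later above the naive arrays.

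The spindle checkpoint genes were 4 of 4 tested higher at 24 h. Bub1b, which encodes BubR1, read 7.17 and 7.36 at 0 h and from 10.48 through 10.90 to 11.23 at 24 h, a difference of 3.63 ± 0.14. Mad2l1, the Mad2 protein that binds Cdc20, read 9.39 and 9.42 at 0 h, dipped at 6 h to a median of 8.82, below both naive arrays, and reached 11.92 to 12.47 at 24 h (2.78 ± 0.10). Ttk, the kinase Mps1 that starts the checkpoint signal, was higher by 1.13 ± 0.14. Bub3, which carries BubR1 and Bub1 to kinetochores, behaved differently. It read 7.85 and 8.02 in naive cells, from 8.35 through 8.60 to 8.88 at 6 h, from 8.75 through 8.95 to 9.16 at 12 h, and from 8.23 through 8.65 to 8.87 at 120 h. Its rise of 1.07 ± 0.16 at 24 h was thus mostly complete by 12 h, and at 120 h it was below the 2-fold line (0.64 ± 0.16). The 2 other expressed Bub3 probes followed its condition means with r of -0.65 and -0.60 and moved by 0.42 and 0.43 over the course, so the early rise rests on a single probe.

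Of the genes of sister separation, Cdc20 and separase (Espl1) were higher at 24 h, and securin (Pttg1) and Ube2c joined them at 48 h. Cdc20, the activator of the anaphase-promoting complex, read 8.53 and 8.79 at 0 h, from 9.46 through 9.62 to 9.77 at 12 h, from 10.64 through 11.29 to 11.90 at 24 h and from 12.13 through 12.25 to 12.47 at 35 h. It therefore climbed in several steps, by 0.96 ± 0.20 at 12 h and 2.63 ± 0.20 at 24 h against 0 h. Espl1 went from 6.87 and 6.92 in naive cells to between 9.03 and 10.13 at 24 h (2.77 ± 0.17) and stayed there. Its inhibitor Pttg1 was still within 0.29 ± 0.18 of the naive level at 24 h, and ran from 7.81 through 8.12 to 8.51 at 48 h, above its naive readings of 6.69 and 7.02. Ube2c, the ubiquitin-conjugating enzyme that works with the complex, ran from 7.30 through 7.56 to 7.85 at 48 h, above 6.48 and 6.56 at 0 h.

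Of the chromosomal passenger complex, which corrects wrong attachments and later guides cytokinesis, all 3 listed genes were called higher at 24 h. Aurkb, its kinase, read 7.17 and 7.31 at 0 h, from 7.05 through 7.25 to 7.59 at 12 h, and from 11.19 through 11.56 to 11.95 at 24 h, a difference of 4.30 ± 0.13 (adjusted p = 6.5e-28). Birc5 (survivin) read 8.16 and 8.18 at 0 h, fell to between 7.47 and 7.70 at 12 h, and ran from 11.63 through 12.01 to 12.46 at 24 h. Incenp, the scaffold, was higher by 2.24 ± 0.11. At 73 h Birc5 ran from 12.89 through 12.99 to 13.29, above all of its 24 h arrays.

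Neither of the 2 tested kinetochore members was higher at 24 h, and these 2 genes do not speak for kinetochore genes at large. Cenpa, the histone H3 variant that marks centromeres, was bright in naive cells at 11.93 and 12.48, ran from 10.51 through 10.76 to 11.05 at 12 h, and had returned to the naive level at 24 h with arrays from 11.41 through 12.20 to 12.93. It then ran from 13.72 through 13.89 to 14.07 at 35 h, with no overlap with any earlier time. Cenpf, a large kinetochore protein, stayed dim, at 6.75 and 6.80 in naive cells and from 7.84 through 8.11 to 8.31 at 120 h (1.29 ± 0.10).

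All 7 tested genes of spindle assembly were higher at 24 h and at 120 h. Nusap1, which bundles spindle microtubules, had the widest course of any member, from 7.71 and 8.24 at 0 h down to between 7.09 and 7.43 at 12 h and up to between 10.38 and 11.86 at 24 h. It went on to run from 12.58 through 12.98 to 13.20 at 73 h, 32.1-fold above the naive mean at its peak. Kif22, a motor that pushes chromosomes from the poles, read 7.94 and 8.01 at 0 h, between 6.97 and 7.35 at 6 h and between 10.38 and 11.26 at 24 h (2.84 ± 0.15). Aurka and its activator Tpx2 were higher by 2.90 ± 0.16 and 2.69 ± 0.21, the pole-separating motor Kif11 by 2.98 ± 0.14, and the microtubule depolymerase Kif2c by 2.77 ± 0.18. Plk4, the kinase of centriole duplication, was the earliest to be called. It read 7.03 and 7.12 in naive cells, from 7.68 through 8.07 to 8.58 at 3 h, from 8.06 through 8.28 to 9.10 at 12 h, from 9.41 through 9.82 to 10.18 at 24 h and from 8.23 through 8.90 to 9.66 at 120 h. Every array after 0 h was above both naive arrays. The 3 h difference of 1.00 ± 0.26 (adjusted p = 0.0016) sat on the 2-fold line, and it dropped below it without replicate 2 of any culture or without replicate 1 of the naive cells. The second expressed Plk4 probe ran the other way (r = -0.21), from 7.32 at 0 h to 6.64 at 12 h and 6.68 at 24 h.

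In cytokinesis, 4 of 5 tested members were higher at 24 h and all 5 at 120 h. Prc1, which bundles the central spindle, read 9.07 and 9.21 at 0 h, between 8.01 and 8.41 at 12 h, between 11.40 and 12.34 at 24 h and between 13.24 and 13.84 at 120 h. Anln (anillin), the scaffold of the contractile ring, read 6.78 and 6.91 at 0 h, from 9.30 through 9.71 to 10.16 at 24 h and from 11.26 through 11.44 to 12.09 at 96 h, so that its 96 h arrays lay above all its arrays of 24, 35 and 48 h. The motor Kif4 was higher by 3.16 ± 0.15 at 24 h. Ect2, which activates RhoA at the cell equator, was dimmer, with 6.63 and 6.68 at 0 h and a range of 7.27 to 8.42 at 24 h (1.20 ± 0.24). Kif23, a motor of centralspindlin, was only 0.62 ± 0.18 above 0 h at 24 h since it was already bright in naive cells, and was called from 35 h.

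Among the chromosome structure genes, topoisomerase Top2a, which untangles sister chromatids, read 8.41 and 8.44 at 0 h, from 8.21 through 8.53 to 8.77 at 12 h and from 12.23 through 12.66 to 13.04 at 24 h, a difference of 4.21 ± 0.16. It was 33.6-fold above the naive mean at its peak at 73 h. The chosen probes of the condensin subunits did not share a course. For Smc4 and Ncapg a difference between genes cannot be told apart from one between probes. Ncaph was higher by 1.18 ± 0.14 at 12 h and 3.43 ± 0.14 at 24 h, and Ncapd2 read 8.76 and 8.82 at 0 h, between 7.42 and 8.01 at 6 h and between 10.70 and 11.57 at 24 h (2.37 ± 0.13). The shared ATPase Smc2 was higher by 1.61 ± 0.28 at 24 h, with arrays from 8.39 to 9.61. Its partner Smc4 read 9.26 and 9.74 at 0 h, from 7.36 through 8.44 to 8.89 at 12 h, from 8.30 through 9.08 to 9.55 at 24 h and from 9.84 through 10.33 to 10.76 at 48 h, and was never called higher. The other expressed Smc4 probes had r of 0.52 and 0.01 with it, one running from 9.37 at 0 h to 7.77 at 6 h and the other from 7.80 at 6 h to 8.87 at 24 h. Ncapg stayed close to the background, at 6.45 and 6.46 in naive cells and between 6.67 and 7.38 at 96 h. Bub1, Ccnb2, Cenpe, Nek2 and Kif20a did not pass the filter, and none of their arrays left the range of 6.18 to 6.80, so their course could not be read.

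**Figure D3:**
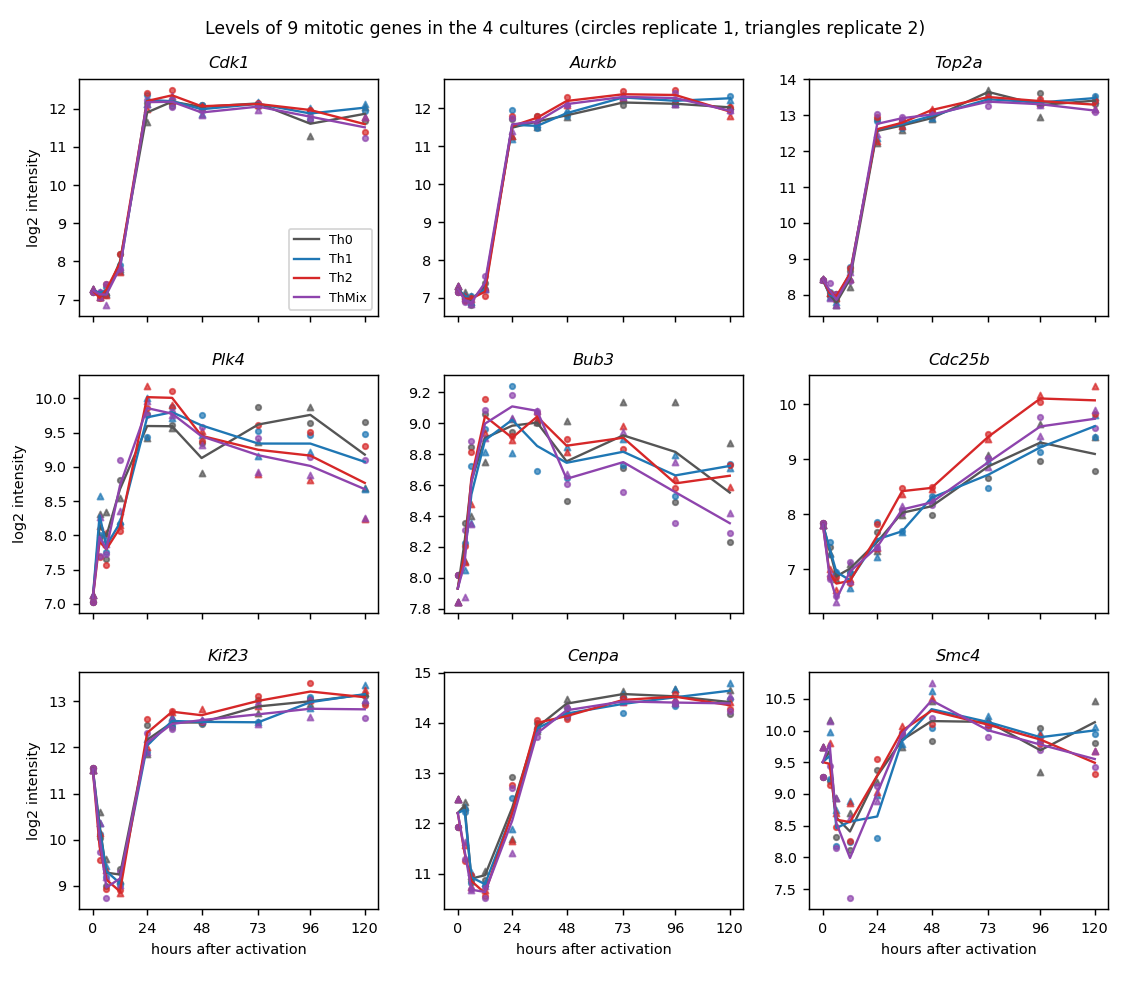
Log2 intensity of 9 members against hours after activation, with lines for the mean of each culture and a symbol for each array. Cdk1, Aurkb and Top2a jump between 12 and 24 h, Plk4 and Bub3 start earlier and come down later, Cdc25b climbs to 120 h, and Kif23, Cenpa and Smc4 dip at 6 to 12 h first.

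A small set of members first went down. Kif23 was called lower at 3 h (4.89% of all genes), Cdc25b, Cenpa, Kif23 and Ncapd2 at 6 h (8.61%), and Cenpa, Kif23 and Smc4 at 12 h (8.71%). As shares of the 37 members these were 2.70%, 10.8% and 8.11%, close to those of all genes. Kif23 read 11.52 and 11.55 in naive cells, from 9.56 through 10.14 to 10.60 at 3 h, from 8.84 through 9.06 to 9.37 at 12 h and from 11.85 through 12.09 to 12.62 at 24 h. No array at 3 to 12 h overlapped the naive or the later ones, and the difference at 12 h was -2.45 ± 0.18 (adjusted p = 6.6e-15). A second bright Kif23 probe followed the same course (r = 0.996), from 9.98 at 0 h to 8.04 at 12 h and 10.82 at 24 h, while another stayed between 9.27 and 9.81 (r = 0.42). Cenpa differed by -1.46 ± 0.23 at 12 h, Smc4 by -1.12 ± 0.28, and Cdc25b and Ncapd2 by -1.07 ± 0.16 and -1.06 ± 0.13 at 6 h. Other expressed probes fell less for Cenpa (7.27 at 0 h, 6.93 at 12 h) and hardly for Cdc25b (7.11 at 0 h, 7.08 at 6 h). Those of Ncapd2 went from 7.15 to 7.12 and from 7.01 to 6.80 at 6 h. For Smc4 one went from 9.37 to 8.21 at 12 h and another from 8.48 to 8.41. Prc1 fell by 1.00 ± 0.16 at 12 h, just short of the 2-fold line, and without replicate 1 of the naive cells 5 members were called lower at 12 h. As kinetic genes that were lower at 2 consecutive times, Cenpa and Kif23 were called in Th0 (11.9% of all genes), Th1 (12.5%), Th2 (13.2%) and ThMix (13.3%), with Cdc25b added in Th2.

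Some markers of other cells moved over the same hours. The summed intensity of 2 markers of red cell precursors averaged 4029 in the naive arrays, 1920 at 6 h and 1063 at 12 h. It had dropped to 403 by 24 h and to 180 by 120 h. The sum of 3 B cell markers averaged 1158, 559 and 427 at 0, 12 and 120 h, and that of 6 markers of monocytes, macrophages and dendritic cells, of which 4 passed the filter, 1872, 576 and 1189. Summed T cell markers averaged 90017, 47073 and 63658. Over the single arrays the sums ran from 164 to 5006 for red cell precursors, from 331 to 1554 for B cells, from 513 to 2379 for the monocyte list, from 2383 to 7649 for CD8 T cells and from 264 to 324 for NK cells. Their part in the early falls was not tested.

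The midpoint of the rise, the last time before the peak at which the line between sampled means crossed the middle between the 0 h mean and the peak, ordered the members. It could be read for 35 members, and in 27 it lay between 12 and 24 h, with a median of 20.1 h. Bub3 came first at 5.08 h and Plk4 next at 12.1 h, followed by Ncaph at 16.8 h and Cdk1 at 17.2 h. Aurkb (19.0 h), Top2a (19.1 h), Birc5 (20.1 h) and Nusap1 (22.2 h) lay in the main body. Kif23 (27.4 h), Ube2c (28.2 h), Cenpa (31.5 h), Pttg1 (34.2 h), Cenpf (47.1 h) and Cdc25b (63.7 h) came last. With no samples between 12 and 24 h, a time in that interval is an interpolation, and the order within it is not a measured one.

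The experiments differed in timing. The median midpoint was 19.4 h in replicate 1 and 21.4 h in replicate 2, and it was later in replicate 2 for 32 of 35 members. The median absolute difference was 2.07 h and the largest 6.50 h, so neighbours in the main body do not differ beyond it. The 24 h arrays show the same gap. The median member read 10.40 in replicate 1 and 9.76 in replicate 2 in Th0, 10.36 and 9.87 in Th1, 10.43 and 9.95 in Th2, and 10.22 and 9.95 in ThMix.

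**Figure D4:**
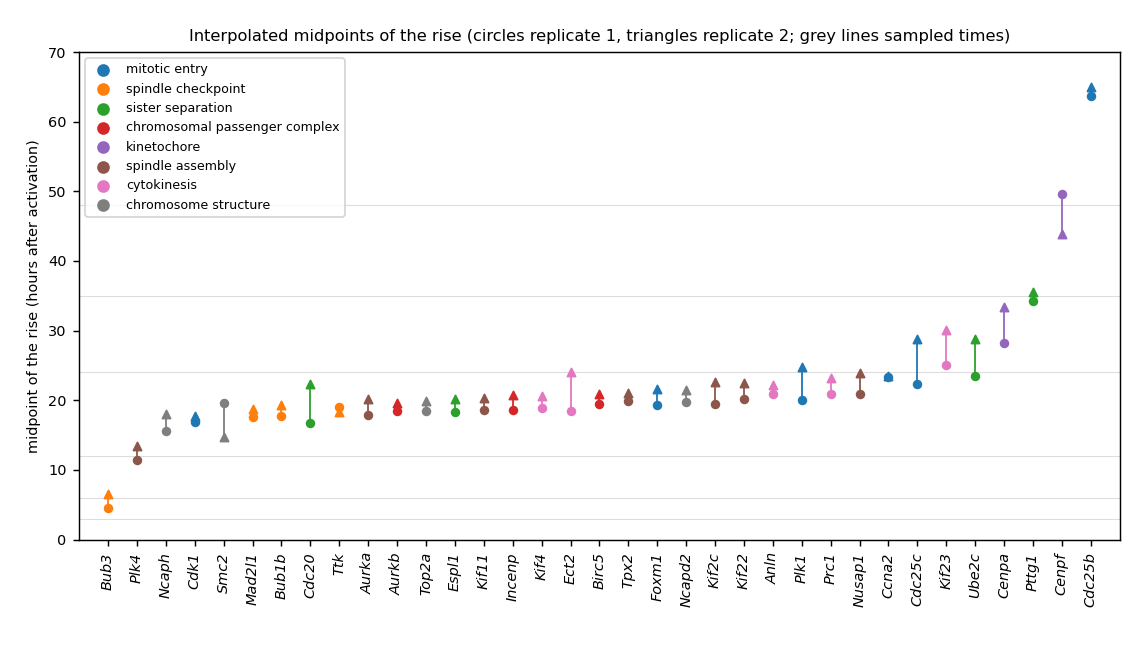
Interpolated midpoint of the rise in hours for 35 members, ordered by the midpoint of their mean course and coloured by role, with circles for replicate 1 and triangles for replicate 2. Most members lie between 12 and 24 h with the triangle above the circle, Bub3 and Plk4 come first, and Pttg1, Cenpf and Cdc25b last.

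After the rise the members stayed high. The peak of the mean course fell at 24 h for Bub3 and Plk4, at 35 h for Cdk1, at 48 h for 3 members, at 73 h for 15, at 96 h for 9 and at 120 h for 7. The exact peak time was unsteady on this plateau, with 13 members peaking at 96 h in replicate 1 and 2 in replicate 2. The 120 h level lay 0.16 below the peak in the median member, and the widest gap was in Plk4, where it fell by 0.88. From 73 to 96 h, on the adjusted p alone, Cdc25b, Ttk, Anln and Ncapg rose (7.40% of all genes) and Cdk1 and Smc2 fell (10.6%). From 96 to 120 h no member rose (2.35% of all genes), and Kif11 alone fell (3.47%).

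Over the longer span, from the mean of 35 and 48 h to the mean of 96 and 120 h, Cdc25b rose by 1.42 ± 0.07 and Anln by 1.06 ± 0.08, the 2 members past 2-fold (4.09% of all genes). With the mean of all expressed probes these became 0.88 and 0.58, both below 2-fold. No member fell 2-fold, with limma, at the adjusted or the unadjusted p (0 members, against 3.87% of all genes). With the adjusted p alone, 23 members rose (26.3% of all genes), among them Prc1 by 0.91 ± 0.07, Nusap1 by 0.64 ± 0.10, Cenpf by 0.64 ± 0.05 and Foxm1 by 0.61 ± 0.05. The 6 members that fell (29.1% of all genes) were Smc2 by 0.57 ± 0.13, Plk4 by 0.48 ± 0.12, Cdk1 by 0.33 ± 0.07, Smc4 by 0.31 ± 0.13, Bub3 by 0.26 ± 0.07 and Mad2l1 by 0.12 ± 0.05. The median member changed by 0.35 in Th0, 0.45 in Th1, 0.15 in Th2 and 0.24 in ThMix.

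Whether this late change differed between cultures was put to an F-test. No member passed it in limma (9.90% of all genes did), with 6 at an unadjusted p under 0.05 and a lowest adjusted p of 0.076 in Kif11. With the experiment as a block at each time point, the same test called 9 members (24.6% of all genes), namely Ccna2, Pttg1, Birc5, Tpx2, Plk4, Kif11, Kif2c, Nusap1 and Kif4. Plk4 changed by 0.17 and 0.04 in Th0 in replicates 1 and 2, by -0.34 and -0.65 in Th1, by -0.34 and -1.20 in Th2 and by -0.57 and -0.97 in ThMix. Th0 was thus the highest of the cultures in both replicates. Without Th0 replicate 1 the test called Kif11, and without Th1 replicate 2 it called Ncapd2.

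How many members differed between the cultures depended on whether the fit held the experiment as a block, and Cdc25b differed most. At 24 to 48 h, Ncapg alone passed the F-test over the 4 cultures (9.99% of all genes), and none did without replicate 1 or 2 of Th0 or replicate 2 of ThMix. Ncapg averaged 6.43 in Th0, 6.59 in Th1, 6.68 in Th2 and 6.62 in ThMix there. All of these lay below the filter value of 6.77, so this call rests on a signal near the background. Counting members called in at least 1 pair of cultures added Ttk (2 members, 12.6% of all genes). With the experiment as a block at each time point, 9 members passed (21.9% of all genes), namely Cdc25b, Ttk, Pttg1, Aurka, Tpx2, Plk4, Nusap1, Ncapd2 and Ncapg.

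At 73 to 120 h, 6 members passed, Ccna2, Cdc25b, Pttg1, Kif11, Kif4 and Ncapg, which is 16.2% of the members against 29.2% of all genes. With the block 18 members passed, or 48.6% against 43.5% of all genes, so the order of the shares turned. Without the 2 arrays that stood apart, Cdc25b and Ncapg remained, and without Th2 replicate 1 the test called Ccna2, Cdc25b and Plk4. Cdc25b was called in all of these settings. Ncapg averaged 6.68 in Th0, 6.71 in Th1, 6.94 in Th2 and 6.86 in ThMix at 73 to 120 h, so its calls in this window lie near the background too.

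Cdc25b showed the largest difference between cultures of any member. Over its 6 arrays at 73 to 120 h it averaged 9.09 in Th0, 9.18 in Th1, 9.86 in Th2 and 9.43 in ThMix. By replicate these were 8.80 and 9.38 in Th0, 9.01 and 9.35 in Th1, 9.77 and 9.96 in Th2, and 9.46 and 9.39 in ThMix. Both Th2 values lay above those of the other cultures. Th2 exceeded Th0 by 0.77 ± 0.12 (adjusted p = 1.4e-06), Th1 by 0.68 ± 0.12 and ThMix by 0.44 ± 0.12.

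In the pairwise comparisons at 73 to 120 h, no member differed between Th1 and Th0 (6.25% of all genes), with 1 at an unadjusted p under 0.05. Under the block Pttg1 and Ect2 were called (14.9% of all genes). Th2 differed from Th0 in 4 members (24.9% of all genes), with Cdc25b, Pttg1 (0.48 ± 0.13) and Ncapg (0.26 ± 0.07) higher and Ccna2 lower (-0.35 ± 0.10). With the block this count was 10, where 35.8% of all genes were called. ThMix differed from Th0 in 6 (22.6% of all genes, and 33.7% under the block), with Cdc25b (0.34 ± 0.12) and Pttg1 (0.38 ± 0.13) higher. Plk4 (-0.57 ± 0.19) and the motors Kif4 (-0.38 ± 0.11, adjusted p = 0.010), Kif2c (-0.37 ± 0.13) and Kif11 (-0.29 ± 0.10) were lower there. This count ranged widely, with 16 under the block, 1 without the 2 arrays that stood apart, 2 without Th0 replicate 2 or ThMix replicate 1, and 3 without ThMix replicate 2.

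Th1 differed from Th2 in Cdc25b and Ncapg (20% of all genes), and in 1 member without Th1 replicate 2 or Th2 replicate 1. Between ThMix and Th1, Birc5 alone was called, lower in ThMix by -0.35 ± 0.11 (14.2% of all genes, and 24.3% under the block), and between ThMix and Th2, Cdc25b alone (4.03%). Neither was called without ThMix replicate 1, nor the latter without ThMix replicate 2. The Birc5 comparison gave 3 members without either Th0 replicate, 2 without Th1 replicate 1 and 10 under the block. The Th1 against Th2 count was 7 under the block (30.1% of all genes) and that of ThMix against Th2 was 4 (10.2%).

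**Figure D5:**
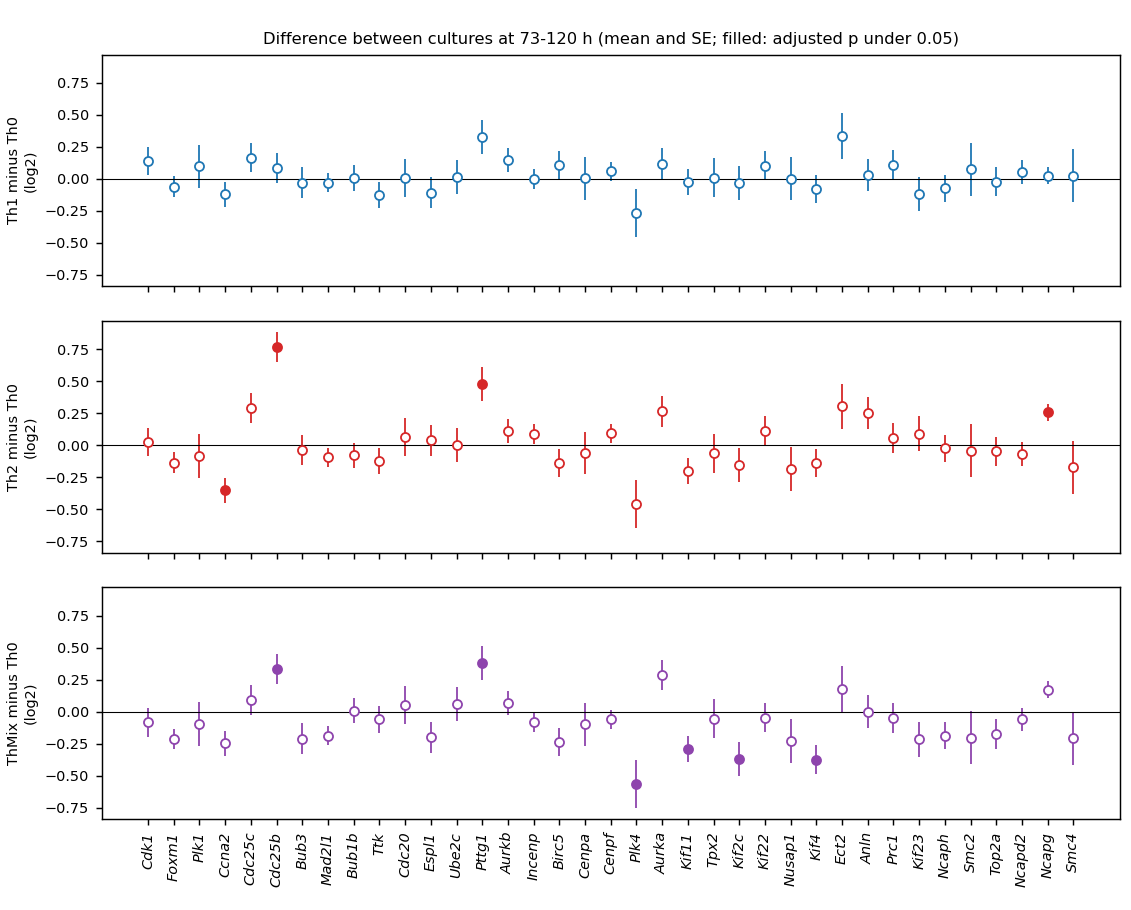
Log2 difference from Th0 at 73 to 120 h (mean and SE, fit without a block) of the 37 tested members in Th1, Th2 and ThMix, with filled symbols for an adjusted p under 0.05. Th1 has no filled symbol, Th2 has 4 with Cdc25b highest at 0.77, and ThMix has 6 with Plk4 lowest at -0.57.

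The members had a common course. Over the 37 condition means, 31 of 37 had a Pearson's r above 0.9 with the mean standardized profile of the other members, with a median of 0.99. Kif22 was highest at 0.998, and Bub3 (0.38), Ncapg (0.48) and Smc4 (0.70) were lowest. The points share the 74 arrays and time explains most of their spread, so this is a description. By the same measure the 10 genes outside the list most like the members were Sgo1, Troap, Kif18b, Sgo2a, Sapcd2, Spag5, Cdca3, Ndc80, Parpbp and Cdca2, with r from 0.992 to 0.997. At 24 h Sgo1 was higher by 3.13 ± 0.13, Kif18b by 3.05 ± 0.16 and Ndc80 by 2.89 ± 0.15.

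Genes of neighbouring steps of the cycle give a scale for this. Of 33 tested DNA replication genes, 17 were called higher at 12 h (8.58% of all genes) and 33 at 24 h (10.9%). Their median midpoint was 14.0 h, against 20.1 h for the mitotic members. The replication genes then all fell from 35 to 48 h to 96 to 120 h, 33 of 33 on the adjusted p (29.1% of all genes). Their median change was -0.58, while the median mitotic member rose by 0.31. Of 41 further mitotic genes, 3 were higher at 12 h (8.58% of all genes), 29 at 24 h (10.9%) and 30 at 120 h (7.31%). Over the late span 15 of these rose (26.3% of all genes) and 12 fell (29.1%) on the adjusted p, with a median of 0.02. Subunits and partners of the anaphase-promoting complex, the target of the checkpoint, had 1 of 15 higher (10.9% of all genes) and 1 of 15 lower at 24 h. The share of all genes lower at 24 h is not given here. The higher was Anapc15, which went from 8.13 at 0 h to 10.37 at 24 h and 8.64 at 120 h, and the lower was Anapc16 (-1.38 ± 0.12). Over the late span 4 of the 15 rose (26.3% of all genes) and 7 fell (29.1%). Of 9 genes of cohesin, the complex that separase cuts, and of its regulators, 1 was higher (10.9% of all genes) and 1 lower at 24 h. The lower was Nipbl, the cohesin loader (-1.72 ± 0.23).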

How the data were processed

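Expression was measured on 74 Illumina mouse arrays. The authors corrected the background, quantile-normalized the arrays and deposited a table of linear intensity for 45135 probes. Log2 was taken here with no further normalization. Groups, replicates and times came from the sample labels. The probe table gave 1 symbol to 34773 probes, several to 18 and none to 10344. Of each gene the brightest probe was kept, and a gene was tested if the highest of its 37 condition means exceeded the median of all values, 6.77 log2. The members and gene lists were chosen with earlier results of these data known.

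limma 3.58.1 in R 4.3.3 fitted 1 mean per condition with empirical Bayes variances and 37 residual degrees of freedom, and p-values were adjusted by Benjamini-Hochberg over 13817 genes. Where a fold threshold is named it was 2-fold. The script was tested on simulated data. SE are from the fit, which takes the arrays as independent, and only 2 arrays per condition limit the precision. The labels number the arrays of a condition 1 and 2, and the study names 2 independent experiments, so same-numbered arrays were taken to share an experiment. Within time points their deviations correlated with a median r of 0.54 over 54 pairs, 52 of them over 0.1 and the lowest 0.01. The main fit has no block, since the study's methods name none.

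Genes described singly were, in each role, the 2 with the widest and the 1 with the narrowest course, members not kinetic in every culture, members below the filter, the 3 with the largest difference in each pair of cultures with calls, and members whose probes disagreed (r under 0.5); 35 other expressed probes of 23 members were compared, 21 with r of at least 0.9 and 6 below 0.5 in 5 members (Cdk1, Bub3, Plk4, Kif23 and Smc4). Other genes named fill in their role and were chosen after their values were seen. Alternatives were a replicate block, other normalization, filter, probe, variance, threshold and array choices.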

Additional observations from a re-analysis of the deposited data

How the results depend on the processing

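Of 548 alternative values for 31 counts of members, 483 stayed within 1.5 times the reported count and 65 did not. The counts of members higher at 24 to 120 h, of the 12 to 24 h step and of kinetic members stayed within it under every alternative run. The replicate block at each time point (experiment by time) changed the pair counts at 73 to 120 h. It called 2 members for Th1 against Th0 (14.9% of all genes), 10 for Th2 against Th0 (35.8%) and 16 for ThMix against Th0 (33.7%). It called 7 for Th1 against Th2 (30.1%), 10 for ThMix against Th1 (24.3%) and 4 for ThMix against Th2 (10.2%). Its F-tests called 9 at 24 to 48 h (21.9%), 18 at 73 to 120 h (43.5%) and 9 for the late change (24.6%). With the experiment number as a single replicate block the 24 to 48 h F-test called 2, and with arrays averaged over cultures (20 values, replicate block) the 24 to 35 h step held 1. The blocks moved no other count by over 1.5 times. A threshold of 1.5-fold gave 2 higher at 6 h, 6 at 12 h, 4, 9 and 6 lower at 3, 6 and 12 h, 10 in the 24 to 35 h step and 6 in the late rise. An adjusted p under 0.01 gave 0 for each ThMix pair, 0 at 24 to 48 h and 2 at 73 to 120 h. The mean of all expressed probes gave 0 higher at 3 h and 1 at 12 h, 0, 2 and 1 lower at 3, 6 and 12 h, 0 in the late 2-fold rise, 2 at 24 to 48 h, 1 for the late change and 2 for ThMix against Th1. Normexp gave 5 lower at 12 h and 2 at 24 to 48 h. Without the arrays that stood apart, ThMix against Th0 gave 1 and the 73 to 120 h F-test 2. Leaving out 1 culture's replicate gave 0 to 1 higher at 3 h, 2 to 5 lower at 12 h, 1 to 4 in the 24 to 35 h step, 0 to 1 for the late change, 0 to 2 at 24 to 48 h, 3 to 8 at 73 to 120 h, and, for the pairs in the order above, 0 to 1, 4 to 6, 2 to 7, 1 to 3, 0 to 3 and 0 to 1; a condition left with a single array took its spread from the others.

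Of 1847 values for 105 called changes of single members, 1786 kept direction and side of the threshold, 59 lost the call and 2 changed sign. The late change of Bub3 became 0.0652 and that of Smc4 0.0307 with the mean of all expressed probes, whose other probes follow other courses. Members near the background, such as Ccna2, Ube2c, Cenpf, Ttk and Ncapg, may have compressed changes on these arrays, which was not tested. Midpoints are bound by the sampled times.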
